A study of Mus musculus with 27 samples.

Results

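Among 27 bulk RNA-seq libraries of sorted mouse cells, 8 carried leukocyte RNA, and these 8 fell on both sides of a gap in the level of Cxcl13, the B cell attracting chemokine. They were picked by 2 measured levels. A library was taken as leukocyte when Ptprc, the gene of the pan-leukocyte antigen CD45, exceeded 100 CPM (reads of a gene scaled to a library total of 1000000 reads in genes, counted on the reverse strand), and it was placed on the Cxcl13-high side above 20 CPM of Cxcl13 (4 libraries) or on the Cxcl13-low side below 10 CPM (4 libraries). The study compared fibroblastic reticular cells (FRC) of skin-draining lymph nodes, FRC-like cells of pancreatic islets sorted on gp38 (podoplanin) and CD45-positive cells of islet infiltrates, in NOD mice with and without an Ins2-CCL21 transgene that places the chemokine CCL21 in beta cells. All mice were 12 weeks old. NOD mice develop autoimmune diabetes spontaneously.

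By their labels, the Cxcl13-high libraries were islet gp38-low TG- replicate 1, lymph node FRC TG- replicate 3, lymph node FRC TG+ replicate 3 and lymph node FRC TG+ replicate 4. The Cxcl13-low libraries were islet CD45 TG- replicate 4, islet gp38-high TG- replicate 2, lymph node FRC TG- replicate 4 and lymph node FRC TG+ replicate 2. TG- stands for NOD/ShiLtJ without the transgene and TG+ for Ins2-CCL21 NOD, so the high side held 2 libraries of each genotype label and the low side 3 TG- and 1 TG+. Values are given in this library order throughout. The labels do not say whether replicates came from separate animals, so p-values measure the spread between these libraries, which may be technical.

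CXCL13 is made chiefly by follicular dendritic cells and other stromal cells of B cell follicles, and also by some macrophages and activated helper T cells. It draws cells that carry its receptor CXCR5, mainly naive B cells and follicular helper T cells, while CCL19 and CCL21 draw naive T cells and dendritic cells through CCR7. In chronically inflamed tissue, islets of NOD mice included, lymphocytes can gather into lymph node-like aggregates in which both chemokine systems are active.

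Ptprc measured 679, 633, 627 and 568 CPM in the Cxcl13-high libraries and 261, 451, 169 and 228 CPM in the Cxcl13-low libraries, and at most 5.79 CPM in the other 19. Cxcl13 measured 85.7, 101, 149.6 and 22.1 CPM on the high side, from 985, 1299, 1274 and 192 reads. On the low side it measured 1.2, 5.32, 3.57 and 1.41 CPM, from 17, 86, 66 and 13 reads. The libraries just inside the Cxcl13 limits were therefore lymph node FRC TG+ replicate 4 at 22.1 CPM and islet gp38-high TG- replicate 2 at 5.32 CPM. Both genes defined the sides and were not tested. High Cxcl13 was no mark of leukocyte libraries: the other 19 ranged from 3.32 to 448 CPM, with a median of 57.4, and 10 of them exceeded 20 CPM.

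The sort labels of most of these libraries went against their RNA. Pdpn, which encodes the gp38 antigen used for the stromal sorts, measured 0.348, 1.01, 0 and 0 CPM on the high side and 0.0708, 0.247, 0.378 and 0.326 CPM on the low side, against 51.1 to 218 CPM in the other 19 libraries. The summed CPM of 16 fibroblast matrix genes was 183 to 831 in the 8 libraries and 18727 to 73212 in the other 19. Only 1 of the 8, islet CD45 TG- replicate 4, is labelled as a leukocyte sort, and 5 are labelled lymph node FRC. All other libraries labelled islet CD45 lay at only 0.38 to 5.79 CPM of Ptprc. Ccl21a, the mouse counterpart of the transgene's chemokine, measured 1.22, 1.01, 2.23 and 0.46 CPM on the high side and 0.85, 0.928, 1.35 and 0.435 CPM on the low side, which gave no check of the genotype labels. The comparison is between libraries with measured high and low Cxcl13 and is no comparison of genotypes, tissues or sorts.

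**Figure D1:**
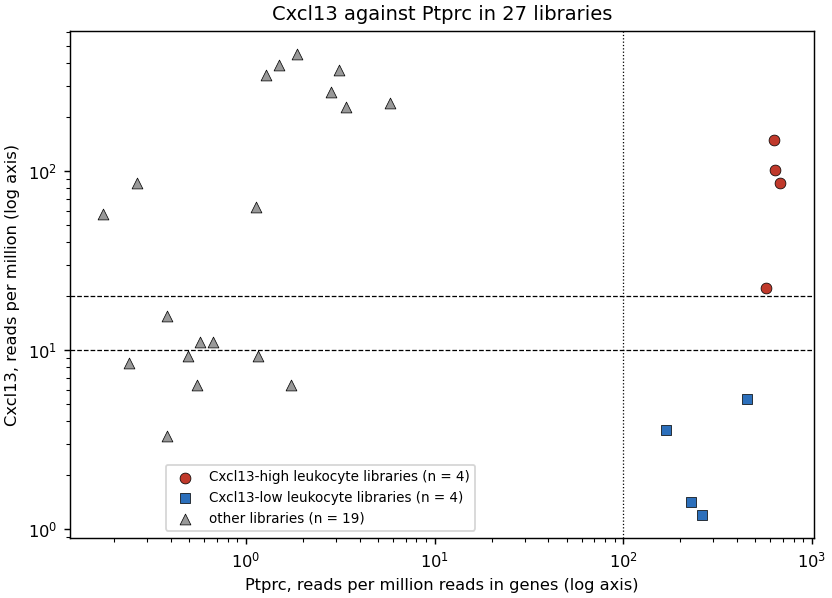
Level of Cxcl13 (vertical, CPM, log axis) against Ptprc (horizontal, CPM, log axis) in each of the 27 libraries, with the limits of 100 CPM for Ptprc (dotted) and of 20 and 10 CPM for Cxcl13 (dashed). The 8 leukocyte libraries lie at 169 CPM of Ptprc or more, apart from the other 19 at 5.79 CPM or less, and split into 4 above and 4 below the Cxcl13 limits.

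The sides differed across much of the transcriptome. Of 13240 genes tested with edgeR's quasi-likelihood test, 5799 (43.8%) passed an adjusted p of 0.05, 3276 (24.7%) higher and 2523 (19.1%) lower in the Cxcl13-high libraries, and the median log2 difference over all genes was 0.04. The sides did not overlap in CPM for 32.3% of the genes tested (13.9% higher and 18.4% lower). These percentages are the background against which each gene group is read. Because the sides were formed on a measured gene of the same libraries, the calls describe which genes went with Cxcl13 in these 8 libraries. Libraries of 1 side were alike: the correlation of log2 CPM across genes was 0.960 to 0.988 within the high side, 0.969 to 0.989 within the low side and 0.899 to 0.966 between sides, across genes that are not independent replicates. Lymph node FRC TG- replicates 3 and 4 carry the same label and lay on opposite sides.

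Properties of the libraries moved with the sides as well. Reads in genes numbered 8517844 to 18498846, so that 3 reads corresponded to 0.162 to 0.352 CPM. The abundant non-coding RNA Gm26917 counts in this total, and its share was larger in lymph node FRC TG+ replicate 4 than in any other library. A larger share lowers the CPM of all other genes of a library. Where sides overlap in CPM only through lymph node FRC TG+ replicate 4, the overlap may therefore rest on the total. Overlap was not computed without Gm26917. Mitochondrial genes took 0.340 to 0.373% of reads in genes on the high side and 0.0956 to 0.180% on the low side, and 58.0 to 63.8% against 48.2 to 54.4% of all reads were unmapped. Reads outside genes made up 7.79 to 8.52% of all reads on the high side and 9.38 to 10.5% on the low side. Each of these gaps gave p = 0.0286 in an exact two-sided permutation test, the smallest that 70 splits allow. After adjustment over 8 properties it was 0.0762. The part of these shares in the gene differences was not tested. Base composition moved too: the median GC content of the transcripts was 43.2% for genes called higher, 54.2% for genes called lower and 49.7% for all genes tested. In the decile of genes with the lowest GC content 80.1% were called higher, against 4.0% in the decile with the highest. An edgeR fit with an offset that removes each library's trend with GC content called 3409 of 13235 genes (25.8%), 2314 higher (17.5%) and 1095 lower (8.27%), and 2408 genes were called in the same direction by both fits. The share of calls that were higher was 56.5% without the offset, 67.9% with it and 70.6% with the acinar level (the log2 summed CPM of pancreatic acinar genes) of each library as a covariate.

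**Figure D2:**
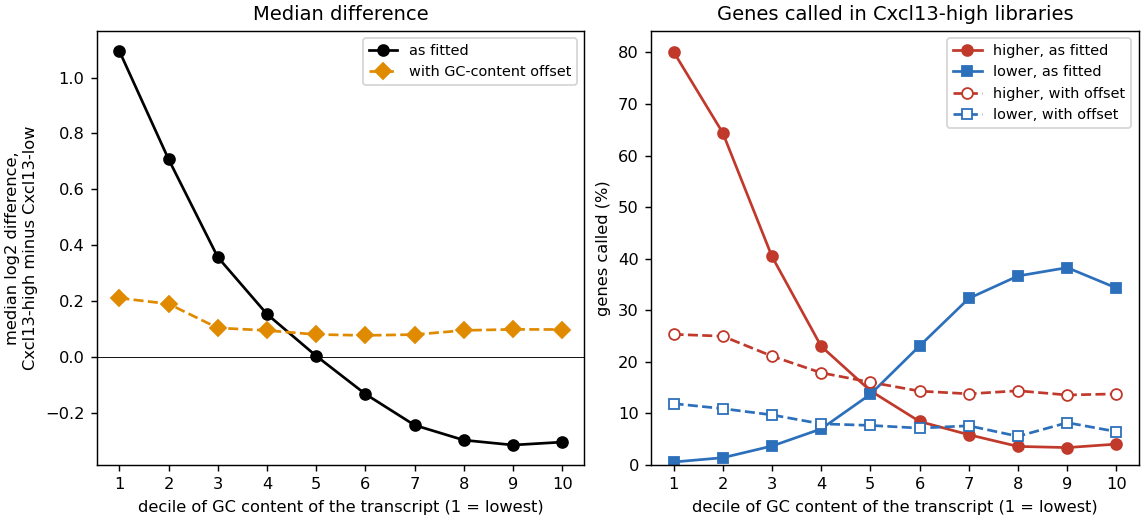
Left, median log2 difference (Cxcl13-high minus Cxcl13-low) of genes in deciles of transcript GC content, as fitted (black) and with the GC-content offset (orange). Right, the percentage of genes called higher (red) or lower (blue) in each decile, as fitted (filled) and with the offset (open): called-higher genes fall from 80.1% to 4.0% across the deciles as fitted and from 25.3% to 13.7% with the offset.

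B cell identity genes were lower where Cxcl13 was higher. Of 19 B cell genes tested, 12 were lower and 1 higher, against the background of 19.1% lower and 24.7% higher among all genes, with a median log2 difference of -0.70, and with the GC-content offset 8 were lower and none was higher (median -0.63). Cxcr5, the receptor for CXCL13, measured 138, 150.2, 110.5 and 165 CPM on the high side and 351, 323, 244 and 312 CPM on the low side. Every low-side library exceeded every high-side library, the log2 difference was -1.12 ± 0.19 (SE) and the adjusted p was 0.00166 (-0.80 and 0.0161 with the offset). Spib, a transcription factor of mature B cells, measured 133, 146, 114 and 145 against 349, 290.4, 247 and 291 CPM, a log2 difference of -1.13 ± 0.16 (SE, adjusted p = 0.000815). The signalling adaptor gene Blnk measured 75.2, 77.1, 68.6 and 64.7 against 112, 112, 88.7 and 97.5 CPM, a difference of -0.54 ± 0.10 (adjusted p = 0.00211). Neither gene overlapped between sides, and both were also called with the offset. Cd79a, which encodes a signalling chain of the B cell receptor, differed by -0.99 ± 0.22 (adjusted p = 0.00596), but its adjusted p was 0.0615 with the offset. The exception was Ms4a1 (CD20), which was higher at 174, 174, 159.5 and 195 against 77.4, 101, 42.9 and 77 CPM (1.25 ± 0.22 on the log2 scale, adjusted p = 0.00216) and was not called with the offset (adjusted p = 0.0899). In bulk RNA, fewer B cells and less of a transcript in each B cell cannot be told apart. In the 5 libraries labelled lymph node FRC alone, 4 B cell genes were called lower.

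The lower B cell genes included those of resting follicular cells. Fcer2a (CD23), a marker of follicular B cells, measured 143, 138, 111 and 195 CPM on the high side and 402, 344, 295 and 377 CPM on the low side, with no overlap and a log2 difference of -1.26 ± 0.24 (adjusted p = 0.0033). Ighd, the heavy chain of IgD on naive B cells, differed by -1.06 ± 0.22 (adjusted p = 0.00459), and by -1.15 with the offset. Ighm, the IgM heavy chain, was not called: it measured 5977, 8625, 6659 and 2562 against 3682, 5668, 3621 and 3359 CPM, and its sides overlapped because lymph node FRC TG+ replicate 4 had the lowest level of all 8. Of 14 follicular, marginal zone and B-1 genes, 5 were lower and 1 higher (3 and 0 with the offset). The count of lower genes was 3 without islet CD45 TG- replicate 4, islet gp38-low TG- replicate 1, lymph node FRC TG- replicate 3, lymph node FRC TG+ replicate 2 or lymph node FRC TG+ replicate 3. Of 9 germinal centre B cell genes, Mef2b and Nuggc were lower and Rgs13 was higher, and Bcl6 was not called (0 higher and 3 lower with the offset).

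Of 14 plasma cell genes, 6 were higher, none was lower and 8 were not called, with a median log2 difference of 0.37, and 9 were higher with the offset. Only Jchain and Igha were higher without overlap, 2 of 14 against the background of 13.9%, and the summed CPM overlapped: 5195, 6960.1, 6384 and 3069.6 on the high side and 3546, 3331, 2842 and 2453 on the low side. Jchain, the joining chain of secreted IgA and IgM, measured 821, 1200.2, 1214 and 399.6 CPM on the high side and 122, 228, 84.7 and 82.3 CPM on the low side. The sides did not overlap, and the log2 difference was 2.79 ± 0.37 (adjusted p = 0.00113). Igha, the IgA heavy chain, measured 1606, 2826, 2954 and 1339 against 1076, 1041, 842 and 844 CPM, also without overlap (1.15 ± 0.20, adjusted p = 0.00189). Prdm1, the plasma cell transcription factor Blimp-1 that is also expressed in effector T cells, differed by 1.09 ± 0.20 (adjusted p = 0.00225), with lymph node FRC TG+ replicate 4 at 13.9 CPM inside the low-side range. The IgG genes Ighg1, Ighg2b and Ighg2c were not called, at -0.17, 0.41 and 0.31 on the log2 scale.

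T cell identity genes were split, while the CD4 coreceptor was lower. Of 21 T cell genes, 7 were lower and 3 higher (median -0.42), and 4 and 0 with the offset. Cd4 measured 131, 134, 108 and 100.1 CPM on the high side and 243, 258, 236 and 271 CPM on the low side. It was among the genes of smallest p in the comparison, with a log2 difference of -1.12 ± 0.11 (adjusted p = 0.000277, and -0.81 with 0.000929 under the offset). Cd8a measured 97.1, 95.8, 80.1 and 74.5 against 76, 64.6, 59.1 and 101 CPM, and its sides overlapped (0.17 ± 0.18, adjusted p = 0.47). The ratio of Cd4 to Cd8a reads was accordingly 1.34 to 1.40 in the 4 high-side libraries and 2.68 to 3.99 in the 4 low-side libraries. This ratio was taken without the GC-content offset and is no count of cells. Tcf7, a transcription factor of naive and memory T cells, was lower, with a log2 difference of -1.05 ± 0.22 (adjusted p = 0.00455). Themis and Cd28, both low in GC content, were higher by 1.06 ± 0.15 and 0.56 ± 0.15, yet differed by 0.04 and -0.17 with the offset and were then not called. Lck, the kinase bound to both coreceptors, was not called (-0.43 ± 0.19, adjusted p = 0.0977). The count of lower T cell genes fell to 2 without islet CD45 TG- replicate 4, islet gp38-low TG- replicate 1, lymph node FRC TG- replicate 3, lymph node FRC TG+ replicate 2 or lymph node FRC TG+ replicate 3, and stood at 12 without lymph node FRC TG+ replicate 4.

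Of the 6 coreceptor and lineage genes, 4 were lower (3 with the offset). Zbtb7b, the factor that sets the CD4 lineage, differed by -0.58 ± 0.13 (adjusted p = 0.00531) and was not called with the offset. Runx3, its counterpart in CD8 T cells, differed by -0.84 ± 0.10 (adjusted p = 0.000426), so that genes of both lineages were among the lower ones. Cd40lg, the helper T cell signal to B cells, differed by -0.81 ± 0.20 (adjusted p = 0.00812).

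Genes of naive lymphocyte recirculation were lower on the high side. Of 10, 6 were lower and 1 higher (median -0.48), and 6 and 0 with the offset. Ccr7, the receptor for CCL19 and CCL21, measured 349.8, 406, 301 and 415 CPM on the high side and 829, 814, 631 and 756 CPM on the low side. No library of 1 side reached the other, and the log2 difference was -1.04 ± 0.17 (adjusted p = 0.00134, 0.0157 with the offset). S1pr1, the receptor that lets lymphocytes leave tissue, measured 136, 166, 125 and 132 against 249.9, 265, 191 and 255 CPM (-0.80 ± 0.13, adjusted p = 0.00151). Foxo1 and Klf2, transcription factors that drive the homing receptors, differed by -0.82 ± 0.14 and -0.56 ± 0.12 (adjusted p = 0.00145 and 0.00493), and Klf2 was not called with the offset. Il7r was the member called higher, at 0.90, and was not called with the offset.

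In the chemokine and lymphotoxin group, 6 of 18 genes were lower and 2 higher, against 19.1% and 24.7% of all genes. With the offset 4 were lower and 3 higher, against 8.27% and 17.5%. The group's median log2 difference was -0.08, and 0.33 with the offset. Receptors led the lower genes. Besides Cxcr5 and Ccr7 these included Cxcr4, the CXCL12 receptor (-0.48 ± 0.16, adjusted p = 0.0289). Lta, the lymphotoxin subunit that induces follicular stroma, measured 9.31, 7.3, 5.52 and 10.9 against 14.3, 13.2, 12.4 and 14.4 CPM (-0.71 ± 0.25, adjusted p = 0.0384), and was not called with the offset (adjusted p = 0.332). Ltb, its membrane-bound partner, was not called (-0.48 ± 0.22, adjusted p = 0.106). Tnfsf11, which encodes RANK ligand, was higher at 7.92, 5.83, 4.7 and 5.52 against 2.41, 4.02, 1.78 and 2.83 CPM (1.12 ± 0.25, adjusted p = 0.00543). Cxcl12 was the other gene called higher (1.74 ± 0.42, adjusted p = 0.00732). Ccl21a was not called, and Ccl19, at 0.696, 0, 0.704 and 0.46 CPM on the high side and 0 in all 4 low-side libraries, was below the filter on low counts. The count of lower genes fell to 3 without islet CD45 TG- replicate 4 or lymph node FRC TG- replicate 3.

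Cytotoxic and natural killer cell genes were higher on the high side almost without exception. Of 15 genes 14 were called higher, with the offset also 14, the median log2 difference was 2.17 (1.74 with the offset), and the summed CPM was 375, 399, 309 and 196 on the high side and 96.2, 97.4, 96.9 and 119 on the low side. Gzmk, a granzyme of effector memory T cells, measured 15.5, 21.6, 13.7 and 7.59 CPM against 2.13, 1.98, 1.24 and 1.52 CPM (3.04 ± 0.26, adjusted p = 0.000245). Gzma differed by 2.18 ± 0.21 (adjusted p = 0.000252). Klrd1, which encodes the CD94 receptor of natural killer and CD8 T cells, measured 11.5, 10.6, 11 and 8.29 against 1.13, 1.98, 1.03 and 1.96 CPM (2.76 ± 0.23, adjusted p = 0.000154). Ccl5, a chemokine stored by effector lymphocytes, measured 111, 127, 95 and 52.4 against 15.3, 17.7, 22.8 and 25.9 CPM (2.17 ± 0.25, adjusted p = 0.000552). In each of these genes lymph node FRC TG+ replicate 4 was the lowest of the high side and still above the whole low side. Ifng, the gene of interferon gamma, measured 6.7, 7.85, 5.4 and 4.83 against 0.85, 0.371, 0.811 and 0.87 CPM, a log2 difference of 3.06 ± 0.30 (adjusted p = 0.000277). Prf1, the pore-forming perforin, was the single member not called (-0.19 ± 0.18, adjusted p = 0.419).

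Of 12 regulatory and follicular helper T cell genes, 7 were higher and 3 lower (7 and 0 with the offset). Il21, the cytokine of follicular helper T cells, measured 5.48, 4.04, 4.23 and 1.84 CPM on the high side and 1.13, 0.557, 0.324 and 0.87 CPM on the low side (2.43 ± 0.39, adjusted p = 0.00124). Ikzf2 (Helios), found in regulatory T cells, differed by 1.41 ± 0.18 (adjusted p = 0.000563). Ctla4, the inhibitory receptor of regulatory and activated T cells, measured 66.1, 59.8, 51.4 and 28.7 against 20.9, 27.8, 12.9 and 21.2 CPM (1.28 ± 0.21, adjusted p = 0.00147), and lymph node FRC TG+ replicate 4 stood only just above the low side. Foxp3, the defining factor of regulatory T cells, was lower, at -0.51 ± 0.17 (adjusted p = 0.0299) and was not called with the offset. With the acinar level as a covariate 2 of the 12 were called higher, and 4 without islet gp38-low TG- replicate 1.

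**Figure D3:**
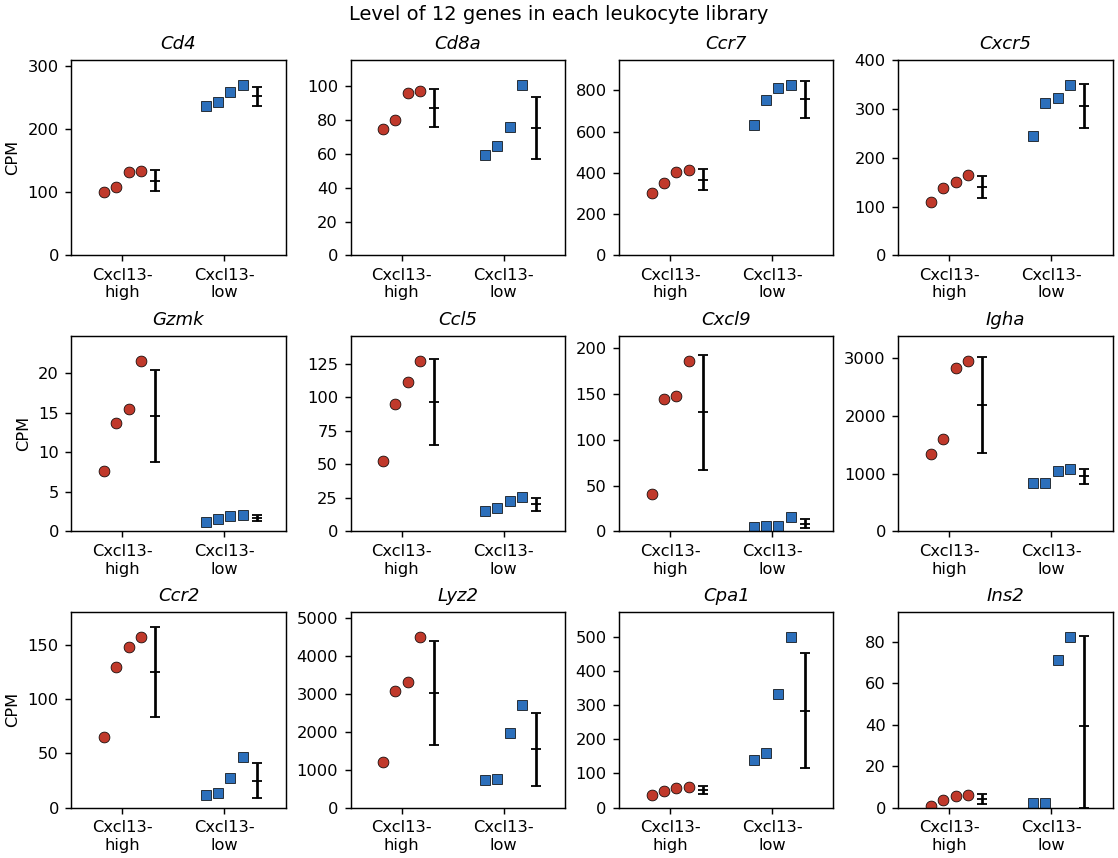
CPM of 12 genes in each of the 4 Cxcl13-high (red circles) and 4 Cxcl13-low (blue squares) libraries, sorted by level within a side, with the mean and SD beside each side (the bar is cut at 0). Cd4, Ccr7, Cxcr5 and Cpa1 lie lower on the high side and Gzmk, Ccl5, Cxcl9, Igha and Ccr2 higher, each with no overlap, while Cd8a, Lyz2 and Ins2 overlap.

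Of 19 interferon-stimulated genes, 9 were called higher and none lower (10 and 0 with the offset), and 10 were not called. The median log2 difference was 0.72, and the summed CPM overlapped: 689, 621, 571 and 278 on the high side and 231, 309, 264 and 225 on the low side. Only lymph node FRC TG+ replicate 4, the library with the largest share of Gm26917, made these sums overlap. Whether they overlap without Gm26917 in the total was not tested. Cxcl9, a chemokine induced by interferon gamma, measured 187, 148, 144 and 40.5 CPM on the high side and 6.52, 15.8, 6.49 and 5.22 CPM on the low side. It differed by 3.87 ± 0.46 on the log2 scale (adjusted p = 0.0008), more than any other member of the group. Cxcl10, which shares the receptor CXCR3 with Cxcl9, measured 39.7, 31.6, 25 and 11.6 against 7.3, 9.46, 9.03 and 4.46 CPM (1.76 ± 0.29, adjusted p = 0.0017). Ifit2, an antiviral gene, differed by 1.47 ± 0.23 (adjusted p = 0.00104), and the guanylate-binding protein gene Gbp2 by 1.28 ± 0.22 (adjusted p = 0.00183), with lymph node FRC TG+ replicate 4 inside the low-side range for Gbp2. Mx2, Oas3 and Irf7 were not called (0.00, -0.36 and -0.03).

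Cxcl13, Cxcl9 and Cxcl10 all lie on chromosome 5, and the 250 bases before their transcription starts are shown because Cxcl13 defined the sides and Cxcl9 and Cxcl10 were the chemokines of the interferon group, both called higher without overlap. The sequences are RefSeq promoters of GRCm38.p6, at chr5:95956689-95956938 (plus strand), chr5:92328080-92328329 (minus strand) and chr5:92348890-92349139 (minus strand), and capitals mark a match to the interferon-stimulated response element GAAANNGAAA.
Cxcl13: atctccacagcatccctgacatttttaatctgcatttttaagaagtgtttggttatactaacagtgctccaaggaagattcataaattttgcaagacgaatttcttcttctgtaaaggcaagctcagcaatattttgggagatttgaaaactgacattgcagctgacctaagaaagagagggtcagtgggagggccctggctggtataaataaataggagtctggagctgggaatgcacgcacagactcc
Cxcl9: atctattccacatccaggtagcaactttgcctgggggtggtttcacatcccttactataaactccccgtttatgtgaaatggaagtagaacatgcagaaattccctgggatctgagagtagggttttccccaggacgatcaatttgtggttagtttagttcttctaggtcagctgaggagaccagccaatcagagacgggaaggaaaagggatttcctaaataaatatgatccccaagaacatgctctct
Cxcl10: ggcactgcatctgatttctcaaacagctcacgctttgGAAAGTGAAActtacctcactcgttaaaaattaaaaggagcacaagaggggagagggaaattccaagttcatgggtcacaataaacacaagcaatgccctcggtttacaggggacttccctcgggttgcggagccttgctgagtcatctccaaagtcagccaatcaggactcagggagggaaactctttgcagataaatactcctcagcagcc
Both strands were searched for exact matches to GAAANNGAAA, to TTCNNNGAA as a form of the gamma-activated site and to GGGNNTTTCC as a form of the kappaB site. Variant forms of these sites were not searched. Of 32851 RefSeq promoters of this length, 2.98% held the response element pattern, 7.02% the gamma-activated site pattern and 1.41% the kappaB pattern. The Cxcl10 window held 1 match to the response element pattern, and no other exact match was found in the 3 windows. A missing match does not show that a site is absent, and a match says nothing of binding.

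Macrophage and monocyte genes were higher by count, with wide spread. Of 22 tested, 8 were higher and none lower, against the background of 24.7% higher among all genes. With the offset 7 were higher, against 17.5% of all genes. Only 2 of 22 were higher without overlap, against the background of 13.9%. The median log2 difference was 1.10, but the summed CPM overlapped: 11069.8, 10204, 15279 and 4025 on the high side and 2392, 7278, 7689.8 and 2545 on the low side. Lymph node FRC TG+ replicate 4 lay below islet gp38-high TG- replicate 2 and lymph node FRC TG- replicate 4. Ccr2, the chemokine receptor of inflammatory monocytes, measured 158, 129.5, 149 and 65.1 against 12, 46.2, 27.7 and 13.3 CPM and did not overlap (2.30 ± 0.41, adjusted p = 0.00319). Ms4a7, a gene of differentiated macrophages, measured 57.2, 51.7, 72.2 and 16.3 against 5.17, 16.3, 13.8 and 5.44 CPM (2.19 ± 0.47, adjusted p = 0.00671). Ctss, the protease cathepsin S of antigen-presenting cells, differed by 1.23 ± 0.27 (adjusted p = 0.00652), with overlap. Lyz2, the myeloid lysozyme, was not called: 3298, 3071, 4506 and 1201 against 739, 2691, 1975 and 748 CPM (0.93 ± 0.47, adjusted p = 0.141). The complement genes C1qa, C1qb and C1qc had differences of 1.10, 1.20 and 1.10 and were not called. The group's count was 5 without islet gp38-low TG- replicate 1 or lymph node FRC TG+ replicate 3, 13 without lymph node FRC TG- replicate 4, 2 in the libraries labelled lymph node FRC, and 22 with limma-voom or with the acinar level as a covariate.

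Genes of serosal cavity macrophages gave 2 higher and 1 lower call of 12, against 24.7% higher and 19.1% lower among all genes. Timd4 and Vsig4, phagocytic receptors of resident macrophages, differed by 1.66 ± 0.54 and 2.44 ± 0.53 (adjusted p = 0.036 and 0.00596), and Timd4 was not called with the offset. Laptm5, a lysosomal gene expressed widely in leukocytes, was lower, at -0.75 ± 0.11 (adjusted p = 0.000947).

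Dendritic cell genes gave calls in both directions. Of 20 tested, 5 were higher and 2 lower, against 24.7% and 19.1% of all genes. With the offset 4 were higher and 1 lower, and with limma-voom 10 were higher and 2 lower. The median log2 difference was 0.14, against 0.04 over all genes. With the offset it was 0.45, against 0.11 over all genes. Wdfy4, which supports cross-presentation in conventional dendritic cells and is also expressed in B cells, measured 648, 635, 576 and 587 against 1103, 1298, 1375 and 976 CPM (-0.98 ± 0.13, adjusted p = 0.000713). Among plasmacytoid genes, Tcf4 was higher by 1.18 ± 0.25 (adjusted p = 0.00476) and Siglech by 0.98 ± 0.25 (adjusted p = 0.0113), both with overlapping sides, and Tcf4 was not called with the offset. Flt3 and Zbtb46, which mark conventional dendritic cells, were not called (0.05 and 0.04). The count of higher genes was 2 or 3 without islet CD45 TG- replicate 4, islet gp38-low TG- replicate 1, lymph node FRC TG+ replicate 2 or lymph node FRC TG+ replicate 3, and 10 with the acinar covariate.

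The shared machinery of MHC class II presentation was lower in 4 and higher in 1 of 11 genes, and lower in 1 and higher in 3 with the offset. Cd74, the invariant chain, measured 5762, 5703, 5971 and 3931 against 7171, 8734, 7982 and 6814 CPM without overlap (-0.56 ± 0.11, adjusted p = 0.00258), yet was not called with the offset (-0.15, adjusted p = 0.346). H2-DMb2, a peptide-loading chain, differed by -0.92 ± 0.17 (adjusted p = 0.00196) and was called with both. H2-Oa, which modulates loading in B cells, differed by -0.67 ± 0.14 (adjusted p = 0.0043). The class II chains H2-Aa, H2-Ab1 and H2-Eb1 were not called (0.07, -0.05 and -0.13).

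Pancreatic acinar RNA was present in all 8 leukocyte libraries and was lower on the high side. Of 22 acinar genes 21 were called lower at a median log2 difference of -2.32, and 21 were called lower with the offset (-2.12). Their summed CPM was 827, 925, 635 and 477 on the high side and 2030.0, 4496, 6154 and 1831 on the low side, with no overlap, and lymph node FRC TG- replicate 4 was the highest although its label names no pancreatic tissue. Cpa1, a pancreatic carboxypeptidase, measured 57.1, 60.8, 49.7 and 36.8 against 159, 331, 500.0 and 140.3 CPM (-2.51 ± 0.41, adjusted p = 0.00233). Pnlip, pancreatic lipase, measured 107, 125, 82.8 and 60.2 against 303, 665, 859.7 and 279.7 CPM (-2.54 ± 0.39, adjusted p = 0.0019). The trypsinogen gene Try4 and the chymotrypsinogen gene Ctrb1 differed by -2.59 ± 0.40 and -2.54 ± 0.41. Sequences of the digestive enzyme families are alike, and multimapped reads did not enter the gene counts. Reads common to paralogs may therefore be missing from the levels of single genes. The acinar level moved with the sides in each gene group above, and its part in those differences was not tested beyond the covariate values given.

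Islet endocrine RNA split the low side and did not separate it from the high side. Ins2 measured 6.18, 5.59, 3.76 and 0.805 CPM on the high side and 2.13, 82.4, 71.1 and 2.07 CPM on the low side, and Ins1 6.09, 5.13, 3.64 and 1.04 and 1.56, 50.9, 59.3 and 1.85 CPM. Both insulin genes were high in islet gp38-high TG- replicate 2 and lymph node FRC TG- replicate 4, the 2 libraries with the most acinar RNA, and as low in the other low-side libraries as on the high side. Neither was called (adjusted p = 0.0743 for Ins1 and 0.0568 for Ins2). Gcg, which encodes glucagon, and Sst, which encodes somatostatin, were not called either (adjusted p = 0.0518 and 0.325). Of 11 endocrine genes 1 was called lower, Chga, the secretory granule protein (-3.39 ± 1.06, adjusted p = 0.0325), and none with the offset. With the acinar covariate 4 were called higher, among them Ins1 and Ins2, whose log2 differences turned to 4.94 and 4.83 (adjusted p = 0.00926 and 0.0156).

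**Figure D4:**
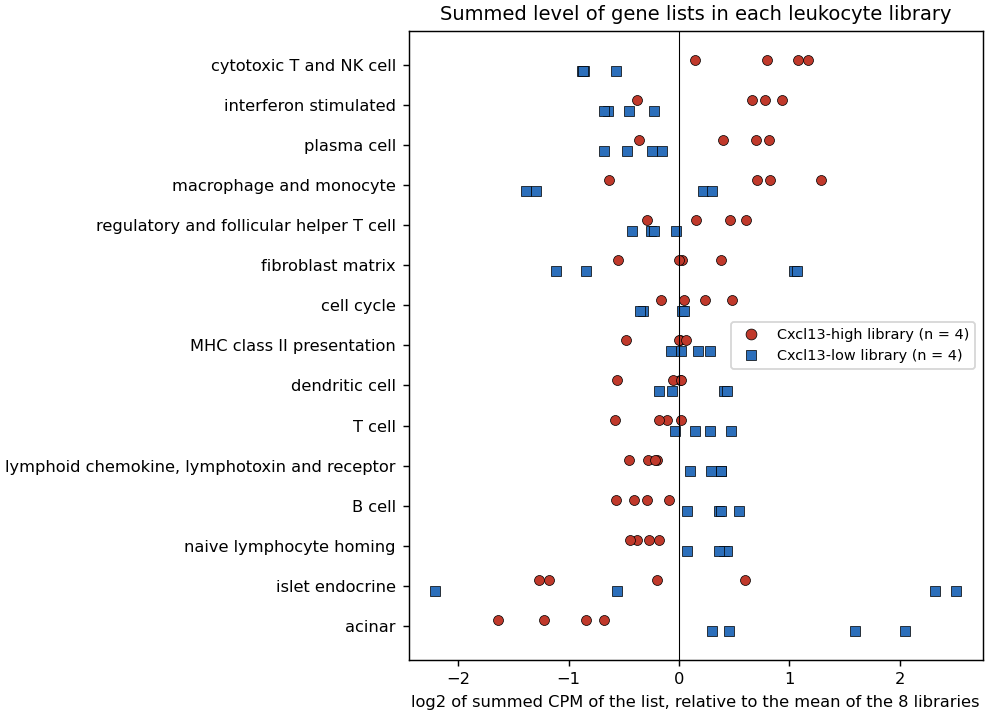
Summed CPM of 15 gene groups in each Cxcl13-high (red circles) and Cxcl13-low (blue squares) library, as log2 relative to the mean of the 8 libraries. Cytotoxic genes lie higher and B cell, naive homing and acinar genes lower on the high side without overlap, while macrophage, fibroblast matrix and islet endocrine genes split the low side into 2 higher and 2 lower libraries.

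Stromal transcripts were few but not equal between the sides. Of 15 fibroblast matrix genes, 12 were higher and none lower (13 with the offset), at a median log2 difference of 1.0. Col3a1, a fibrillar collagen, measured 32.9, 28.7, 41.2 and 25.8 against 13.7, 15.9, 15 and 9.79 CPM (1.20 ± 0.16, adjusted p = 0.000615). Col1a2 differed by 1.31 ± 0.18 (adjusted p = 0.000714), and Dcn, the collagen-binding proteoglycan decorin, measured 12.6, 14.9, 24.8 and 9.32 against 3.54, 5.69, 2.22 and 1.74 CPM (2.18 ± 0.33, adjusted p = 0.00115). Fn1, fibronectin, which macrophages also express, was not called and followed the split within the low side, at 276, 259, 336 and 172 and 120.4, 747, 771 and 180.1 CPM. It made up most of the group's summed CPM, so the sum (403, 397, 515 and 269.7 against 183, 818, 831 and 221) overlapped although most members did not. Of 13 follicular dendritic and reticular genes, 6 were higher and 2 lower (5 and 1 with the offset), and Pdpn, Madcam1 and Il7 were below the filter. The group's summed CPM ran the other way without overlap, at 637, 628, 631 and 527 on the high side and 709, 766, 646 and 656 on the low side. That sum includes Fcer2a, the follicular B cell marker given above, at 143, 138, 111 and 195 against 402, 344, 295 and 377 CPM. It is therefore no measure of stromal RNA alone. With the acinar covariate 6 matrix genes and 3 reticular genes were called higher. The part of stromal RNA in the Cxcl13 level was not tested.

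Cell cycle genes were more often higher than lower, as were all genes (24.7% higher and 19.1% lower, 17.5% and 8.27% with the offset). Of 24 cell cycle genes 10 were higher and 2 lower (10 and 0 with the offset, and 5 higher with the acinar covariate). The same background applies to the other groups of this paragraph. Mki67, Top2a and Kif11, genes of mitosis, differed by 1.66, 1.38 and 1.88, whereas the replication genes Mcm2 and Mcm3 were lower (-0.42 and -0.37). Among the remaining groups, neutrophil and mast cell genes gave 1 higher call of 9 (Cpa3, a mast cell protease), innate lymphoid genes 3 higher and 1 lower of 8, endothelial genes 2 higher and 1 lower of 10, ductal genes 1 higher and 2 lower of 8, mesothelial genes no call of 3, immediate early and heat shock genes 1 higher and 5 lower of 19 (2 and 1 with the offset), and globin genes 3 higher of 3 (1 without lymph node FRC TG- replicate 4). Without lymph node FRC TG+ replicate 4, 9 immediate early and heat shock genes were lower. Xist, the long non-coding RNA of the inactive X chromosome, was higher at 414, 367, 443 and 316 against 129, 239, 98.5 and 100.3 CPM (1.45 ± 0.21, adjusted p = 0.00104). With the offset its difference was 0.76 (adjusted p = 0.00412). Ddx3y of the Y chromosome had no read in any library.

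Across all genes, those of smallest p with no overlap between sides were mixed in function. On the higher side they were AW112010, Tut4, Dock10, Vps35, Sub1, Casp1, Rgs1 and Tmsb4x. AW112010, a transcript that interferons induce in immune cells, measured 80.2, 72.2, 73.8 and 43.2 against 7.72, 11, 7.78 and 8.81 CPM (2.89 ± 0.14, adjusted p = 7.66e-06). Tut4, a terminal uridylyltransferase acting on RNA, measured 62.5, 57.6, 60.8 and 59.7 against 6.09, 10.7, 8.11 and 5.11 CPM (2.98 ± 0.19, adjusted p = 6.04e-05). Rgs1, a regulator of chemokine receptor signalling that marks tissue-resident lymphocytes, measured 122, 99.7, 147 and 101 against 21, 33.8, 18 and 16.4 CPM (2.39 ± 0.19, adjusted p = 0.000154). Casp1, the inflammasome protease, differed by 2.40 ± 0.19, and Tmsb4x, the actin-binding thymosin, by 1.74 ± 0.14. The lower side was led by Kmt2d, a histone methyltransferase (-1.04 ± 0.10, adjusted p = 0.000252), and Cd4, followed by Eif4ebp2, Ssh1, Hectd4, Myh9 and Arf3, with differences from -1.06 to -0.85. Myh9, the heavy chain of non-muscle myosin, measured 1436, 1382, 1133 and 1105 against 2623, 2586, 2542 and 2537 CPM. The genes named here were all also called with the GC-content offset, although every difference was smaller with it. The difference shrank to 0.58 for Vps35, 0.54 for Sub1 and 1.17 for Rgs1, and only to 1.73 for Tmsb4x. Among the lower genes it was -0.63 for Kmt2d, -0.64 for Myh9, -0.48 for Hectd4 and -0.49 for Arf3 with the offset.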

How the data were processed

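RNA of sorted cells was prepared with a ribosomal RNA depletion kit, per the labels' protocols. The authors deposited gene counts per library (STAR 2.5.2a, after bcl2fastq 2.17 and Trim Galore 0.4.3, build mm10, per the submitters' processing notes). No annotation release is named in those notes. Counts of the reverse-strand column were analysed; in the 8 libraries 10.8 to 15.3% of stranded gene reads lay on the forward strand. The 4 lines that name no gene entered neither library sizes nor tests (unmapped 48.2 to 63.8% and outside genes 7.79 to 10.5% of reads). CPM was computed on a total of 1000000 counts in genes. Of 54446 gene IDs, 54409 matched GENCODE M21, which gave names and GC content. GC content was known for 99.96% of genes tested.

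The sides were compared with edgeR 4.0.16 (TMM factors, filterByExpr, robust quasi-likelihood F test, Benjamini-Hochberg over all genes tested, threshold 0.05), and every adjusted p is from it. The fit was tested on simulated data. Library properties had exact permutation tests. Alternatives were DESeq2 1.42.0, voom of limma 3.58.1 with sample quality weights, RLE factors, no filter, unstranded counts, left-out read classes, covariates (labelled genotype, acinar level), the libraries labelled lymph node FRC alone and each library left out. The GC-content offset (loess, span 0.5) and the joint omission of both libraries nearest to the other side were chosen after seeing the data. The libraries and all 28 gene lists (418 entries) were chosen with earlier results of these data known, so no list was tested as a set. Named genes were a fixed set of 14, the 8 of smallest p in each direction among called genes that did not overlap and reached 3 in average log2 CPM, and for each list described the 3 of smallest p and the member of highest mean CPM. Some genes that met this rule are not reported here. Further list members were named after their values were seen. Scripts ran in R 4.3.3 and Python 3.11.15.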

Additional observations from a re-analysis of the deposited data

Results flagged for a closer look

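Of 221 values tested within the 4 libraries of a side (list sums and named genes), 16 had 1 library far from the other 3. Chance alone gives about 1 in 20 such groups. Lymph node FRC TG+ replicate 4 was the lowest of the Cxcl13-high side in 10 of them. Its summed CPM was 1419.9 for dendritic cell genes, 96.4 for innate lymphoid cell genes, 12833 for MHC class II genes and 527 for follicular dendritic and reticular genes. Its CPM was 43.2 for AW112010, 8.29 for Plscr1, 13.9 for Prdm1, 262 for Ctss, 3931 for Cd74 and 40.5 for Cxcl9. The other 3 high-side libraries lay between 144 and 187 CPM for Cxcl9. Gm26917 took a larger share of reads in genes in lymph node FRC TG+ replicate 4 than in any other library, which lowers the CPM of its other genes. The 10 values share this total and are not independent findings. Whether they stay apart without Gm26917 in the total was not tested.

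On the Cxcl13-low side, islet gp38-high TG- replicate 2 was the highest for Tmsb4x (1027 CPM), Arf3 (252 CPM) and Ikzf2 (12.7 CPM). Lymph node FRC TG+ replicate 2 was the highest for the summed cytotoxic and natural killer genes, at 119 CPM against 96.2 to 97.4 in the others. Lymph node FRC TG- replicate 4 was the lowest for Foxo1 (191 CPM, others 252 to 266), and islet CD45 TG- replicate 4 for the summed mesothelial genes (1.49 CPM, others 7.51 to 9.71).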

How the results depend on the processing

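The count of genes called was 4727 to 6500 with each library left out in turn, and 5463 to 8147 under DESeq2, limma-voom, RLE factors, no filter, unstranded counts, left-out read classes and the genotype covariate, and with both libraries nearest to the other side left out. It was 2469 with the acinar covariate (1743 higher, 726 lower), 3746 in the libraries labelled lymph node FRC (1317 lower) and 3409 with the GC-content offset (1095 lower). The acinar level did not overlap between the sides, and the cause of these lower counts was not tested. The direction of single genes turned in these cases. With the acinar covariate the log2 difference was 4.94 for Ins1, 4.83 for Ins2, 0.79 for Chga, 2.60 for Gcg, 3.83 for Sst and 2.25 for Fn1. With limma-voom it was 0.20 for Ins1, 0.31 for Gcg, 0.40 for Sst and 0.31 for Fn1. With the GC-content offset it was -0.17 for Cd28. With each library left out, Ccl21a ranged from -0.11 to 0.61, and the side difference in the share of reads from the abundant non-coding RNA Gm26917 from -4.15 to 0.32 percentage points. No paired analysis was possible because the 2 sides share only 1 replicate number. With 1 library left out the smallest exact p is 0.0571, so the property tests then cannot pass. Genes near 0.162 to 0.352 CPM rest on 3 reads or fewer, and no difference between them is detectable at this depth.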
